A study of Mus musculus with 12 samples.

Results

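Whether alginate oligosaccharide (AOS) changed the mouse lung transcriptome differently after busulfan than without it was asked of all 12 RNA-seq libraries of the study in 1 fit. The measured quantity is the interaction: the log2 change from busulfan alone to busulfan with AOS, minus the log2 change from control to AOS. The contrast was computed for every gene that passed a filter on low counts, which was 15863 of the 19726 genes in the deposited table. A positive interaction means that the AOS difference was higher, or less negative, in mice given busulfan. The same number is also the busulfan difference with AOS minus the busulfan difference without it.

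Lung RNA of mice labelled as strain IRC fell into 4 groups of 3 libraries each. Control mice had no treatment, AOS mice were dosed at 10 mg/kg for 5 weeks, busulfan mice had a single dose of 40 mg/kg, and the combined group had that single dose followed by the same 5 weeks of AOS. The labels give neither sex nor age, and they do not state whether the 3 libraries of a group came from separate animals. Every p-value below therefore measures the spread between these libraries only. The tissue field reads "Cells", while the sample titles and the extraction notes name lung, and the study's design text calls the busulfan group B0 where the sample names have BA0.

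Busulfan alkylates DNA and links its strands to each other; it is given to clear bone marrow before transplantation and is known to injure the lung. Crosslinks stall replication and activate p53, the transcription factor that turns on cell cycle arrest, repair and death genes. Alginate oligosaccharides are short fragments of alginate, a sugar polymer of brown algae, and they are studied as an oral supplement. A cell that folds protein badly uses separate programmes in separate compartments. The unfolded protein response, driven by ATF6, XBP1 and ATF4, raises chaperones of the endoplasmic reticulum (ER), and the heat shock response, driven by HSF1, raises chaperones of the cytosol and mitochondria.

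The libraries carried the genes that define lung. Surfactant protein C (Sftpc), the marker of alveolar type 2 cells, lay between 10100 and 15400 CPM in the 12 libraries, where CPM is the count scaled to a common library size by edgeR. Scgb1a1, the marker of club cells, lay between 16300 and 56400 CPM. Total counts were 16209221 to 17168764 per library, so that the floor of 3 counts stood at 0.177 to 0.188 CPM. Several libraries differed in genes of other tissues in ways that the groups do not explain. The summed level of 19 skeletal muscle genes was 4436 CPM in control replicate 2 and 897 CPM in combined replicate 3. It was 15.8 to 95.7 CPM in the busulfan group and 63.3 to 366 CPM in the AOS group. The lowest control library was at 32.9 CPM and the lowest combined library at 23.3 CPM. The summed level of 16 fat genes was 2991 CPM in AOS replicate 1 and 182 to 608 CPM in the other 11 libraries.

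No gene passed for the interaction. With edgeR's quasi-likelihood F test and p-values adjusted by Benjamini and Hochberg's method over all 15863 genes, 0 genes (0%) had an adjusted p under 0.05, and the smallest adjusted p was 0.989. At an unadjusted p under 0.05 there were 760 genes (4.79%), of which 413 (2.60%) were positive and 347 (2.19%) negative. The limma-voom fit also called 0 genes, with 616 genes (3.88%) at an unadjusted p under 0.05. DESeq2 called 16 genes (0.101%), 12 positive and 4 negative, with 780 genes (4.92%) at an unadjusted p under 0.05. Of those 16 genes, 6 had at least 1 library without a single count.

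The estimates were centred on zero, and the spread between libraries set how small a difference could have been seen. Over all genes the median interaction was 0.003 on the log2 scale, and 8040 genes (50.7%) lay above 0. The median standard error was 0.19, against 0.13 for a single comparison of 2 groups. For 11253 genes (70.9%) the 95% interval of the interaction lay within 1 log2 unit of 0, and for 7012 genes (44.2%) within 0.5. Among the 14928 genes with a mean of at least 1 CPM, 11252 (75.4%) had such an interval within 1 unit. For the remaining genes a change of AOS effect by a factor that large was not excluded by its interval.

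Among genes with a positive interaction, the 12 characterised ones with the smallest unadjusted p were Ier5, Aph1b, Aox1, Mecom, Scrg1, Mgam, Xk, Pnp2, Slc38a4, Cdhr5, Mup2 and Apoa4. None of them passed the adjusted threshold in edgeR. Each kept its sign and an unadjusted p under 0.05 in all 12 fits that left out 1 library, a description of genes that were chosen for their small p.

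Ier5 (chr1:155096367-155099636, mm10) is a member of the immediate early list described below, whose genes also respond to tissue handling. It encodes a stress-induced nuclear protein that, in human cells, promotes the activity of HSF1. Its levels were 66.8, 69.8 and 59.3 CPM in the control libraries, 62.8, 57.8 and 64.8 CPM with AOS, 69.3, 68.9 and 65.9 CPM with busulfan, and 93.0, 105 and 95.8 CPM with both agents. All 3 combined libraries lay above the other 9, and the other groups overlapped. The log2 AOS difference of Ier5 was -0.08 without busulfan and 0.53 with it, and the interaction was 0.60 with a 95% interval of 0.37 to 0.84, a factor of 1.52. The unadjusted edgeR p was 0.000151, and DESeq2 gave an adjusted p of 0.00277. Between the AOS and combined groups Ier5 rose 1.58-fold (edgeR adjusted p = 0.00227), and between control and busulfan it moved 1.04-fold (adjusted p = 0.716).

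Aph1b (chr9:66775202-66797345), a subunit of the gamma-secretase protease, had the same order of groups over a narrower range. Its levels were 28.6, 29.9 and 30.1 CPM in control, 27.5, 27.0 and 27.8 CPM with AOS, 29.4, 29.8 and 31.7 CPM with busulfan, and 40.0, 37.7 and 36.4 CPM with both. The AOS libraries lay below all controls, and the combined libraries lay above all busulfan libraries. The interaction of Aph1b was 0.43 (95% interval 0.25 to 0.62, unadjusted p = 0.000325, DESeq2 adjusted p = 0.103).

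Aox1 (chr1:58029809-58106410), an aldehyde oxidase that metabolises drugs and aldehydes, was lower in either single-agent group than in control. It measured 82.0, 89.6 and 93.7 CPM in control, 70.6, 75.9 and 74.6 CPM with AOS, 56.1, 53.3 and 54.7 CPM with busulfan, and 136, 76.9 and 86.6 CPM with both. No library of the AOS or busulfan group reached the lowest control, and the combined libraries all exceeded the busulfan ones, with replicate 1 the highest of the 12. The interaction of Aox1 was 1.13 (95% interval 0.60 to 1.66, unadjusted p = 0.000680, DESeq2 adjusted p = 0.00867). Neither busulfan comparison of Aox1 passed in edgeR (adjusted p = 0.0770 without AOS and 0.177 with it).

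Of the other genes in that direction, Mecom, a zinc finger transcription factor, had the narrowest interval, 0.16 to 0.47 around an interaction of 0.31. Mecom was at 68.6, 65.4 and 70.0 CPM in control and at 57.9, 56.2 and 55.1 CPM with busulfan, a fall that passed without AOS (log2 -0.27, edgeR adjusted p = 0.0361). It was at 59.9, 57.3 and 61.7 CPM with AOS and at 60.6, 61.2 and 62.5 CPM with both, where the busulfan difference was 0.04 (adjusted p = 0.680). Mecom overlaps an antisense gene, Mecomos, and whether the authors' counting used strand is not given in the sources used here. Slc38a4, a sodium-coupled amino acid transporter, had an interaction of 1.06 (0.49 to 1.63), and Xk, a membrane protein of red cells and muscle, one of 0.87 (0.42 to 1.32). Pnp2, a purine nucleoside phosphorylase, had one of 0.50 (0.23 to 0.76), and its reads may be shared with the near-identical neighbour Pnp.

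The remaining 5 were weakly expressed or belonged to liver and gut. DESeq2 called Scrg1, Mup2 and Apoa4 among them, with adjusted p of 0.0277, 0.0295 and 0.0178. Scrg1, a small secreted protein, was at 2.59, 3.95 and 5.14 CPM in control, 2.14, 2.18 and 0.489 CPM with AOS, 1.02, 1.15 and 1.23 CPM with busulfan and 6.45, 2.57 and 4.01 CPM with both, an interaction of 3.21 (1.61 to 4.80). Mgam and Cdhr5, a sugar-digesting enzyme and a cadherin of the intestinal brush border, had interactions of 2.49 (1.25 to 3.74) and 4.01 (1.83 to 6.2), the latter from 0 to 5 counts in each AOS and busulfan library. Mup2, a major urinary protein made by liver, was at 9.10, 5.90 and 18.9 CPM in control, 9.69, 6.36 and 12.7 CPM with AOS, 0.120, 1.76 and 0.368 CPM with busulfan and 20.2, 6.46 and 7.95 CPM with both. Only the busulfan libraries stood apart, and the fall from control passed (log2 -3.90, edgeR adjusted p = 0.0482). Apoa4, an apolipoprotein of liver and gut, ranged from 0.0598 CPM in a busulfan library to 14.2 CPM in control replicate 2. The liver marker list, like Mup2 and Apoa4, was lowest with busulfan, at summed levels of 405 to 608 CPM. These overlapped the 537 to 1943 CPM of control and the 467 to 1549 CPM of the combined group. With AOS the sums were 717 to 1271 CPM. The median sum was 628 CPM in control and 787 CPM with AOS, while Apoa4 averaged 6.54 CPM and 0.697 CPM. The part of the liver list in these genes' values was not tested.

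Among genes with a negative interaction the 12 characterised ones with the smallest unadjusted p were Plcxd3, Gp1bb, Csprs, Slc50a1, Iah1, Cebpa, Pla1a, Cd163, Ankzf1, Gadd45b, Sez6l and Polh. None passed in edgeR, and each again kept its sign and an unadjusted p under 0.05 in all 12 fits without 1 library.

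Plcxd3 (chr15:4375491-4575585), a phospholipase C-like protein, had the smallest unadjusted p of all genes, 0.000146. Its levels were 6.57, 6.2 and 7.75 CPM in control, 11, 10.7 and 7.83 CPM with AOS, 9.56, 11.1 and 9.25 CPM with busulfan, and 5.51, 6.22 and 6.13 CPM with both. Each agent alone left every library above every control, and the combined libraries were back among or below the controls. The interaction of Plcxd3 was -1.26 (95% interval -1.75 to -0.78), with a DESeq2 adjusted p of 0.00493. The busulfan difference of Plcxd3 was 0.54 without AOS (edgeR adjusted p = 0.113) and -0.72 with it (adjusted p = 0.0420).

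In Csprs, Cebpa, Slc50a1 and Polh, too, every AOS library lay above every control and every combined library below every busulfan library. The busulfan libraries of Csprs, Cebpa and Slc50a1 overlapped the controls, and those of Polh lay above them. Csprs, a gene of a repeated cluster, was at 4.16, 1.95 and 7.10 CPM in control, 7.43, 15.5 and 8.69 CPM with AOS, 6.70, 8.08 and 4.04 CPM with busulfan and 0.313, 1.26 and 1.71 CPM with both. The combined libraries lay below the other 9, and the interaction of Csprs was -3.76 (-5.56 to -1.97, DESeq2 adjusted p = 0.00493). The repeats of that cluster can share reads, so the level of Csprs is uncertain.

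Cebpa (chr7:35119293-35121928), a transcription factor of alveolar epithelium, myeloid cells and fat, was at 85, 89.5 and 69.5 CPM in control, 133, 119 and 95.3 CPM with AOS, 90.3, 98.8 and 88.0 CPM with busulfan and 85.8, 80.3 and 78.2 CPM with both. The interaction of Cebpa was -0.69 (-1.07 to -0.31, unadjusted p = 0.00231). Cebpa is also a fat gene, and AOS replicate 1, its highest library, is the one with the highest summed fat level. The part of fat in the Cebpa value was not tested.

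Polh (chr17:46171355-46202641) encodes DNA polymerase eta, which copies past damaged bases and is a p53 target. It was at 10.8, 12.1 and 11.7 CPM in control, 14.6, 12.9 and 12.8 CPM with AOS, 13, 13.5 and 13 CPM with busulfan, and 9.33, 11.1 and 11.2 CPM with both. The interaction of Polh was -0.54 (-0.86 to -0.21, unadjusted p = 0.00378). Polh is not a member of the p53 list described below. Slc50a1, a sugar transporter, was steady at 46.2 to 46.3 CPM in control and at 38.1 to 40.8 CPM in the combined group, an interaction of -0.34 (-0.51 to -0.17). Its busulfan difference passed with AOS (log2 -0.33, edgeR adjusted p = 0.0208) and not without it (log2 0.01, adjusted p = 0.914).

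Gp1bb, the beta subunit of the platelet receptor for von Willebrand factor, had 0 counts in all 6 control and combined libraries. It was at 1.66, 1.03 and 0.734 CPM with AOS and at 1.85, 0.243 and 0.797 CPM with busulfan. A fitted interaction of such a gene depends on the prior count, so none is given. DESeq2 called Gp1bb with an adjusted p of 1.97e-05, the smallest of its calls. Gp1bb lies within the transcription unit of Sept5 on the same strand, and Sept5 was at 8.40 to 14.0 CPM in every library.

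The other 6 negative genes were of several kinds. Cd163, the haemoglobin scavenger receptor of macrophages, had an interaction of -1.49 (-2.33 to -0.66), and Pla1a, a phospholipase, one of -1.46 (-2.28 to -0.65). Gadd45b, a stress sensor, had one of -0.45 (-0.71 to -0.19), with 31.4 to 36.5 CPM in control and 41.2 to 47.9 CPM in the busulfan group. Iah1, an esterase, had one of -0.53 (-0.81 to -0.25) and overlaps Adam17 on the other strand. Ankzf1, which acts on stalled ribosomes, had one of -0.46 (-0.72 to -0.20). Sez6l, a neuronal membrane protein, had 1 or 2 counts in each combined library, under the floor of 3, and at most 1.78 CPM elsewhere, so no interaction is given for it.

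**Figure D1:**
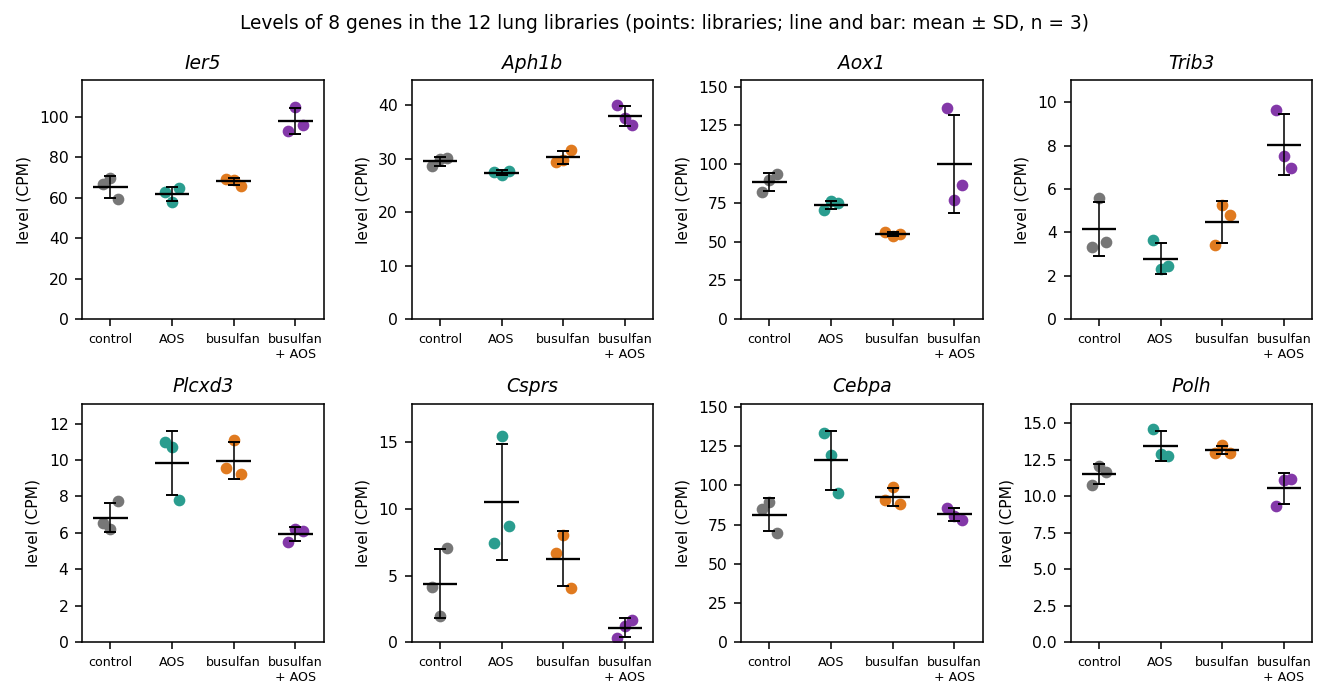
Levels in CPM of 8 genes in the control, AOS, busulfan and combined libraries (points: single libraries; line and bar: mean ± SD, n = 3). The combined libraries lie above the other 9 for Ier5 and Trib3 and below them for Csprs, while Aox1, Plcxd3, Cebpa and Polh show single-agent groups apart from the combined group.

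Opposite AOS differences were also counted as genes whose groups do not overlap in either AOS comparison. With 3 libraries a group such patterns also arise without any effect. Under random assignment of libraries to groups, the group sizes alone give a rate that neither share below exceeds. The counts are therefore no evidence of opposite effects. In 30 genes (0.189%) every AOS library lay below every control library while every combined library lay above every busulfan library, and in 39 genes (0.246%) the converse held. The first pattern includes Aph1b, Aox1, Mecom, Scrg1, Mgam, Pnp2, Slc38a4, Cdhr5 and Hsp90b1. The second includes Plcxd3, Gp1bb, Csprs, Slc50a1, Iah1, Cebpa, Pla1a and Polh. All these genes were named for a small interaction p, so their separation adds no independent evidence.

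In the comparisons of 2 groups within the same fit, edgeR calls came with busulfan and not with AOS. AOS against control called 0 genes (0%) in edgeR, with 642 (4.05%) at an unadjusted p under 0.05, and 11 (0.0693%) in DESeq2. The combined group against busulfan called 0 (0%) in edgeR, with 1006 (6.34%) at an unadjusted p under 0.05, and 29 (0.183%) in DESeq2. Busulfan without AOS called 192 genes (1.21%), 116 higher (0.731%) and 76 lower (0.479%). Busulfan with AOS called 365 genes (2.30%), 247 higher (1.56%) and 118 lower (0.744%). At an unadjusted p under 0.05 these comparisons held 2964 (18.7%) and 3254 (20.5%) genes, and DESeq2 called 975 (6.15%) and 1249 (7.87%). The larger second count is not a test of a difference. Of the 450 genes called in either comparison, 0 passed for the interaction.

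The busulfan differences lay in the same direction with and without AOS. These comparisons share no library. Of the 192 genes called without AOS, 187 had the same sign with AOS, with a median size of 0.683 against 0.541 on the log2 scale. Of the 365 called with AOS, 359 had the same sign without it, with a median size of 0.553 against 0.392. In each set the size is larger in the comparison that chose the genes. The 107 genes called in both are 55.7% of the first list and 29.3% of the second. With its sign reversed for genes that busulfan lowered, their median interaction was 0.004. In 95 of them the 95% interval of the interaction lay within 1 log2 unit of 0. Choosing genes called in both comparisons favours an interaction near 0. Over all 15863 genes the busulfan differences without and with AOS had a Spearman correlation of 0.462 and a Pearson correlation of 0.105, and the AOS differences without and with busulfan had 0.047 and -0.19. Genes are not independent replicates, and these correlations are descriptions.

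**Figure D2:**
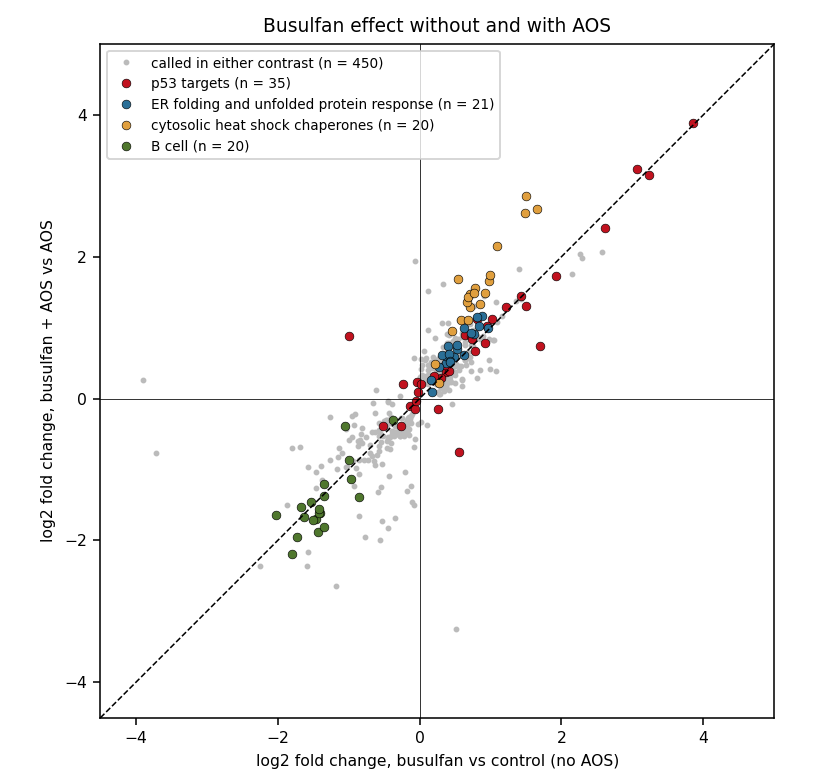
Log2 fold change of busulfan against control (x axis) and of busulfan with AOS against AOS (y axis) for the 450 genes called in either comparison (grey) and all tested members of 4 gene lists (coloured); the dashed line marks equal effects. Above the line lie 22 of 35 p53 genes, 19 of 21 ER folding genes, 19 of 20 heat shock genes and 7 of 20 B cell genes, and 1 grey gene falls outside the axes.

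The p53 targets, which DNA crosslinks are known to activate, had a median interaction near zero, with single members far from it. Of 35 tested members, 14 rose with busulfan without AOS and 14 with AOS, and none fell. None of the 35 passed for the interaction, 22 estimates were above 0, and the median was 0.04. The estimates ran from -1.31 for Sulf2 to 1.88 for Ddit4l (95% interval -0.11 to 3.87), and 26 of the 35 intervals lay within 1 log2 unit of 0. Ddit4l was at 19.5 CPM in control replicate 2 and at 2.77 to 7.89 CPM in the other 11 libraries, and its estimate was 0.36 without that replicate. The median of the list ran from -0.02 to 0.10 without single libraries. The mean level of the list was 4.27 to 4.34 log2 CPM in control, 4.26 to 4.40 with AOS, 5.06 to 5.20 with busulfan and 5.08 to 5.17 with both. The busulfan and combined libraries lay in the same range, well above the rest.

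Zmat3, an RNA-binding p53 target, was at 17.5, 18.5 and 19.9 CPM in control, 21.4, 20.8 and 21.2 CPM with AOS, 51.6, 53.4 and 53.2 CPM with busulfan, and 48.4, 56.4 and 52.4 CPM with both. Its interaction was -0.19 (95% interval -0.41 to 0.02). Mdm2, the ligase that degrades p53, had an interaction of 0.09 (-0.13 to 0.30). The intervals of Zmat3 and Mdm2 lay within 0.5 log2 units of 0. Eda2r, a death receptor of the TNF family, rose from 3.13 to 3.77 CPM in control to 31.3 to 34.8 CPM with busulfan (log2 3.23, edgeR adjusted p = 0.000300) and was at 26.4 to 36.9 CPM with both, an interaction of -0.08 (-0.76 to 0.60). Gdf15, a secreted stress hormone, had an interaction of 0.04 (-0.94 to 1.02).

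Cdkn1a, the p21 inhibitor of the cell cycle, was less defined. Its levels were 21.6, 12.9 and 25.1 CPM in control, 14.0, 17.2 and 32.8 CPM with AOS, 117, 174 and 72.9 CPM with busulfan and 168, 152 and 20.3 CPM with both. Combined replicate 3 lay within the range of the libraries without busulfan, while its Zmat3 and Eda2r levels lay with the busulfan libraries. The interaction of Cdkn1a was -0.20 (-2.21 to 1.82), and without that library it was 0.29. Within the list of 35 the smallest interaction p belonged to Sulf2, a heparan sulfate sulfatase, at -1.31 (-2.17 to -0.45, unadjusted p = 0.00660).

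The ER folding genes had small, mostly positive interactions. Of 21 members, 14 rose with busulfan without AOS and 19 with AOS, and none fell. For the interaction 0 of 21 passed, 19 were above 0, the median was 0.18 against 0.003 over all genes, and all 21 intervals lay within 1 log2 unit of 0. The median stayed between 0.13 and 0.25 when single libraries were left out. Mean levels were 6.90 to 6.95 log2 CPM in control, 6.95 to 7.0 with AOS, 7.31 to 7.61 with busulfan and 7.62 to 7.74 with both. The combined libraries lay above all busulfan libraries.

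Hsp90b1, the ER form of HSP90, had the largest estimate of the 3 members with an unadjusted p under 0.05. It was at 901, 891 and 886 CPM in control, 861, 844 and 862 CPM with AOS, 1070, 1130 and 1340 CPM with busulfan, and 1490, 1390 and 1420 CPM with both. Its interaction was 0.34 (95% interval 0.10 to 0.58, unadjusted p = 0.00984). Pdia3, a disulfide isomerase, had one of 0.29 (0.10 to 0.49), and Canx, a lectin chaperone, one of 0.23 (0.02 to 0.44). Ddit3, the stress-induced factor CHOP, had the largest estimate of the list, 0.37, with an interval that included 0 (-0.05 to 0.80). Hspa5, the chaperone BiP, was at 494, 545 and 561 CPM in control, 539, 560 and 620 CPM with AOS, 816, 998 and 1130 CPM with busulfan and 1400, 1240 and 1220 CPM with both. The combined libraries of Hspa5 all lay above the busulfan ones. Its interaction of 0.29 had an interval of -0.07 to 0.64, so its busulfan differences with and without AOS were not distinguishable.

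The cytosolic heat shock chaperones had larger estimates with far wider intervals. None of 20 members was called for busulfan without AOS and 15 rose with AOS, while 0 of 20 passed for the interaction, also at an unadjusted p under 0.05. The contrast in calls is therefore not a shown difference. The estimate was above 0 in 19 of 20 members, with a median of 0.71, and only 2 intervals lay within 1 log2 unit of 0. Mean levels were 7.06, 6.96 and 7.57 log2 CPM in control, 7.01, 6.96 and 7.39 with AOS, 7.42, 8.04 and 8.53 with busulfan, and 9.13, 8.49 and 8.22 with both. The busulfan and combined groups overlapped, and the libraries within each group spread over a wider range than the distance between the group means of 7.997 and 8.613. The median was 0.37 without combined replicate 1 and 1.01 without busulfan replicate 3.

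Hspa8, the constitutive cytosolic HSP70, was at 1970, 2820 and 3410 CPM with busulfan and 5140, 3720 and 3140 CPM with both, against 1300 to 1870 CPM in the other 6 libraries. Its interaction was 0.48 (-0.25 to 1.21), and 0.26 without combined replicate 1. Hsp90ab1, a cytosolic HSP90, had one of 0.52 (-0.08 to 1.12), and Hspa4, a nucleotide exchange factor for HSP70, one of 0.27 (-0.05 to 0.59). Hspe1, the mitochondrial co-chaperonin, was at 51.9, 73.0 and 102 CPM with busulfan and 195, 95.8 and 82.0 CPM with both, an interaction of 0.76 (-0.22 to 1.73). It is named for its promoter and not by its p. Cirbp and Rbm3, RNA-binding proteins that are raised by cold and lowered by heat, had interactions of -0.14 (-0.51 to 0.22) and -0.19 (-0.47 to 0.10).

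**Figure D3:**
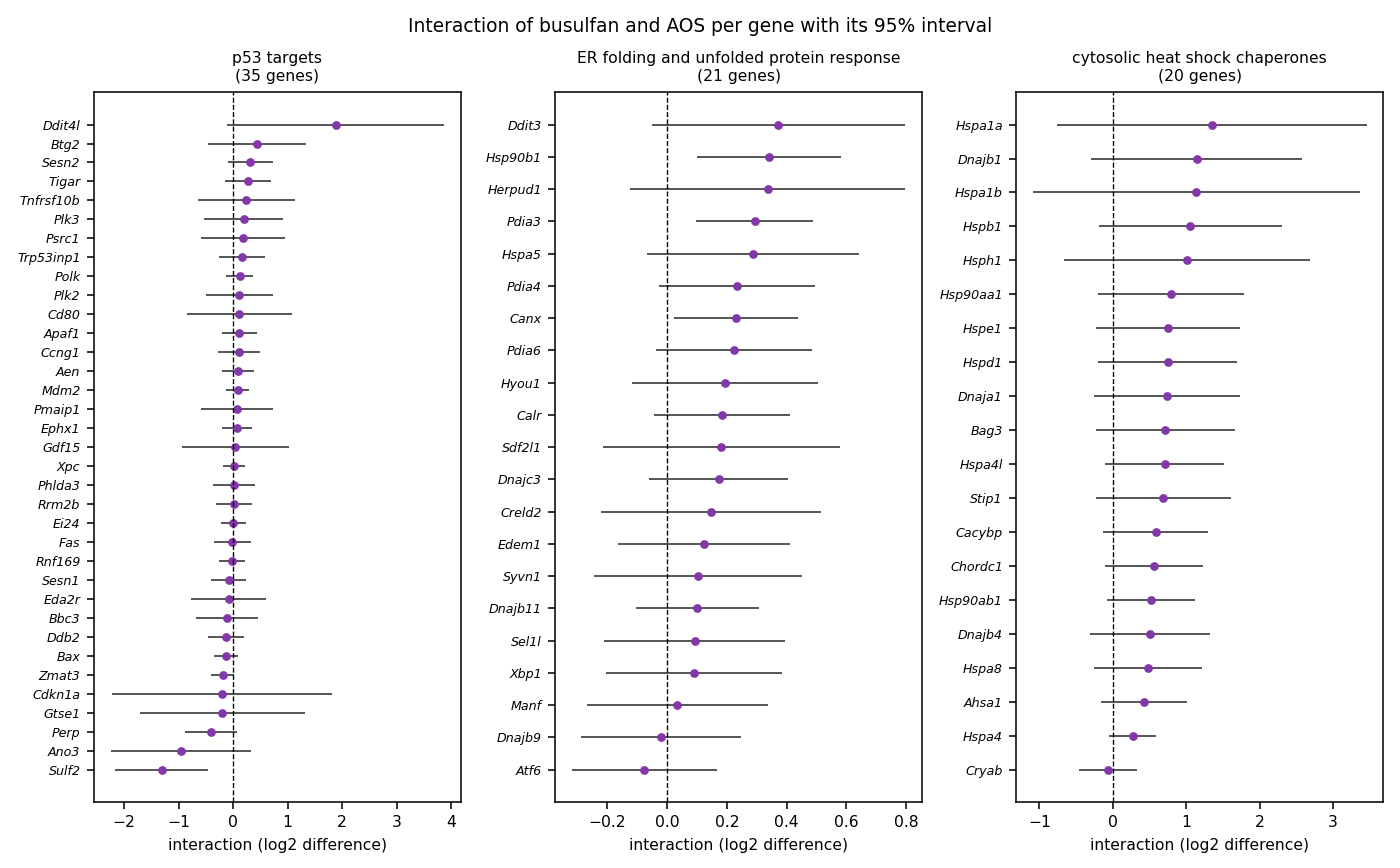
Interaction (log2 difference, x axis; the scales differ between panels) with its 95% interval for each tested p53 target, ER folding gene and cytosolic heat shock chaperone. Estimates scatter around 0 for p53 targets, lie above 0 for 19 of 21 ER genes and for 19 of 20 heat shock genes, and most intervals include 0.

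Promoters of members from both folding programmes are shown because the motifs of their regulators can be read in them. Each runs 5′ to 3′ on the strand of the gene from 250 bases before to 50 after the start, as RefSeq gives it on GRCm38.p6, with matches in capitals. Hspe1 lies at chr1:55087898-55088197 on the plus strand and Hsp90b1 at chr10:86705395-86705694 on the minus strand.
Hspe1: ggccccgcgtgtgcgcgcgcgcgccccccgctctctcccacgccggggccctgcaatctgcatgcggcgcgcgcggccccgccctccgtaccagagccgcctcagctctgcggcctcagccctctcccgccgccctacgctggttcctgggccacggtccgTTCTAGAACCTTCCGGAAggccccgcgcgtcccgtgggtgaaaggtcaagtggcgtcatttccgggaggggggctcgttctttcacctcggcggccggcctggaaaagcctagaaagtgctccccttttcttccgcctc
Hsp90b1: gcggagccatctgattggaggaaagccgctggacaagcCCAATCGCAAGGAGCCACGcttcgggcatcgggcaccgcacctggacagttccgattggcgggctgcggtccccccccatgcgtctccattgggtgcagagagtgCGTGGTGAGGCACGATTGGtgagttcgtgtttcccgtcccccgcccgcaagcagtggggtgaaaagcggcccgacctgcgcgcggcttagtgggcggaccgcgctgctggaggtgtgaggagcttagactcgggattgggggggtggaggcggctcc
The capitals in Hspe1 are 2 overlapping matches to the heat shock element GAANNTTCNNGAA, which on the other strand reads TTCNNGAANNTTC. The capitals in Hsp90b1 are 2 matches to the ER stress response element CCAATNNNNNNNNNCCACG, one on each strand. On either strand the first motif occurs in 0.603% of 32851 promoters of 300 bases, and in 4 of the 16 heat shock genes with a promoter in the table (Chordc1, Hspd1, Hspe1 and Hsph1). The second occurs in 0.119% of promoters and in 8 of 18 ER folding genes (Calr, Canx, Creld2, Dnajc3, Hsp90b1, Hspa5, Pdia6 and Syvn1). A listed gene was counted if any of its promoters had a match, so shares of promoters and of genes are unlike measures. A match is a description of these letters and does not show binding.

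An unadjusted edgeR p under 0.05 was found in 2 of 19 genes of the integrated stress response and 4 of 22 of the NRF2 antioxidant programme. Slc7a11 is in both lists. The share over all genes was 4.79%, and the liver and skeletal muscle lists described below held more such genes. Shares as high or higher were also found in 5 of 16 fat, 4 of 19 platelet, 3 of 8 mesothelial and 4 of 22 T cell genes. Other lists held none, such as the 20 heat shock genes. Of 19 integrated stress response genes, 0 passed for the interaction, 16 were above 0 and the median was 0.27, which fell to -0.004 without combined replicate 1 and was 0.41 without combined replicate 3. Trib3, a pseudokinase induced by ATF4, was at 3.31, 5.6 and 3.55 CPM in control, 3.63, 2.30 and 2.45 CPM with AOS, 3.41, 5.28 and 4.78 CPM with busulfan and 9.64, 7.54 and 6.95 CPM with both. All combined libraries exceeded the other 9. The interaction of Trib3 was 1.41 (0.57 to 2.26, unadjusted p = 0.00379).

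Slc7a11, the cystine importer that both programmes raise, was at 2.86 to 3.92 CPM in the 6 libraries without busulfan, 2.09, 1.70 and 2.45 CPM with busulfan and 17.5, 7 and 3.18 CPM with both. Its interaction of 2.11 (0.59 to 3.62) was 1.25 without combined replicate 1. Hmox1, which breaks down haem, was at 33.8, 38.2 and 45.8 CPM with busulfan and 88.4, 52.0 and 49.2 CPM with both, an interaction of 0.82 (0.15 to 1.48). Among 22 NRF2 genes 0 passed, 21 were above 0 and the median was 0.30. Without combined replicate 1 that median was 0.16 and the interaction of Hmox1 was 0.49. Of the 31 proteasome subunits 0 passed, 21 were above 0 and the median was 0.04, with all intervals within 1 log2 unit of 0.

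Blood and immune lists gave no interaction call either. Of 20 B cell genes, 8 fell with busulfan without AOS and 10 with AOS. For the interaction 0 of 20 passed, 7 were above 0 and the median was -0.15, which became 0.09 without control replicate 1 and -0.30 without control replicate 2. Pax5, the B cell identity factor, was at 7.05, 14.7 and 17.1 CPM in control, 9.33, 6.97 and 9.73 CPM with AOS, 4.78, 3.10 and 3.80 CPM with busulfan and 1.75, 2.21 and 2.71 CPM with both, an interaction of -0.23 (-1.21 to 0.75). In tissue RNA of this kind, fewer cells of a type and less RNA per cell cannot be told apart. Of 22 T cell genes 20 were above 0, the median was 0.26 and 0 passed. This median was 0.15 without control replicate 3 and 0.45 without combined replicate 1. Icos, a costimulatory receptor, had the smallest p of these, with an interaction of 0.74 (0.19 to 1.29).

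Alpha-globin genes were low in the combined group, and so was the summed level of the 16 genes of the red cell list, but not its mean log2 level. The sum was 3062 to 4972 CPM in the combined group and at least 6463 CPM in every other library. Most of that sum is Hba-a1, while the mean log2 level gives each member the same weight. The mean level of that list was 3.33 to 4.46 log2 CPM in the combined group, against 3.43 to 4.24 in the other 9 libraries. Hba-a1, an alpha-globin gene, was at 5620, 11300 and 7770 CPM in control, 8240, 11100 and 7900 CPM with AOS, 6710, 5930 and 10300 CPM with busulfan and 4270, 2570 and 3080 CPM with both. The combined libraries lay below the other 9. The interaction of Hba-a1 was -1.35 (-2.27 to -0.42, unadjusted p = 0.00858), and that of Alas2, the first enzyme of red cell haem synthesis, was -1.11 (-2.0 to -0.22). Hba-a2, at -1.41 (-2.36 to -0.46), is a near-identical copy of Hba-a1 and can share its reads. Of 16 red cell genes 0 passed and 12 were below 0, with a median of -0.43 that was -0.25 without busulfan replicate 3. The beta-globin genes went the other way in single libraries: Hbb-bs was at 15.5, 2.09 and 819 CPM in the combined group and at most 0.787 CPM elsewhere, and Hbb-bt, chosen with it after its values were seen, was at 3.88, 0.419 and 140 CPM there. The read assignment behind those beta-globin values is not given in the sources used here.

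Platelet genes were also mostly negative, with 17 of 19 below 0, a median of -0.74 and 0 passing, and the median was -0.42 without busulfan replicate 1. Interferon-stimulated genes had a median of -0.33 with 30 of 34 below 0, but the median became 0.49 without AOS replicate 2 and -1.11 without combined replicate 3. Their mean levels were 4.17 to 4.27 log2 CPM in control, and 4.0, 6.15 and 4.73 with AOS. They were 4.44, 5.52 and 4.54 with busulfan and 4.09, 5.41 and 6.53 with both. Single libraries of all 3 treated groups stood above the rest.

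Epithelial and stromal lists of the lung had estimates near zero for alveolar cells and wider ones for airways. All 14 alveolar type 1 genes had intervals within 1 log2 unit of 0, with a median of 0.01. Sftpc had an interaction of -0.27 (-0.68 to 0.15), and the 18 alveolar type 2 genes a median of -0.14 that was -0.0015 without control replicate 3. Of these Lyz1, a lysozyme, had the smallest p at -0.92 (-1.53 to -0.31). The 32 ciliated cell genes had a median of 0.32 and the 20 club and goblet genes one of 0.42, with 0 passing in either list. The ciliated median was 0.05 without busulfan replicate 3 and 0.72 without busulfan replicate 2. The club and goblet median was 0.23 without combined replicate 1 and 0.74 without AOS replicate 3. Their summed levels moved between libraries of the same group, from 40064 to 66567 CPM for club and goblet genes in the AOS group. Scgb1a1 had an interaction of 0.17 (-0.78 to 1.13). Mesothelial genes, which mark the lung's outer lining, were all 8 below 0 with a median of -0.55. That median was -0.30 without AOS replicate 1, the library with the highest fat level. Wt1 was at 20.9, 11.4 and 7.89 CPM in the AOS group and had an interaction of -1.40 (-2.43 to -0.37).

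The largest medians belonged to tissues that are not lung. The 19 skeletal muscle genes had a median interaction of 6.51 with all 19 above 0 and 11 at an unadjusted p under 0.05, yet 0 passed. The median was 3.53 without control replicate 2 and 1.39 without that library and combined replicate 3. Myh1, a fast muscle myosin, was at 0.301, 851 and 59.0 CPM in control, 13.8, 4.60 and 0.673 CPM with AOS, 0, 0 and 0.123 CPM with busulfan and 4.82, 0.658 and 132 CPM with both. Within the control group alone its levels spread over more than the range of the 4 group means.

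The 18 liver genes had a median of 4.16, with 16 above 0, 13 at an unadjusted p under 0.05 and 0 passing, and 2.09 without control replicate 3. Alb, serum albumin, was at 37.0, 54.1 and 683 CPM in control, 163, 88.6 and 83.1 CPM with AOS, 6.28, 25.1 and 10.9 CPM with busulfan and 482, 93.9 and 18.8 CPM with both. The busulfan libraries were the lowest group. The 16 fat genes had a median of -2.36, which was -0.43 without AOS replicate 1. Lep, the fat hormone leptin, was at 31.3, 2.60 and 0.245 CPM in the AOS group and at most 1.15 CPM elsewhere. Of the 16 genes that DESeq2 called, Myh1 and Acta1 are in the muscle list. Of the rest, Apoa4, Mup2, Mup12 and Mup14 are best known from liver or gut, Bpifa1 from upper airways, and 2 carry only provider identifiers.

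**Figure D4:**
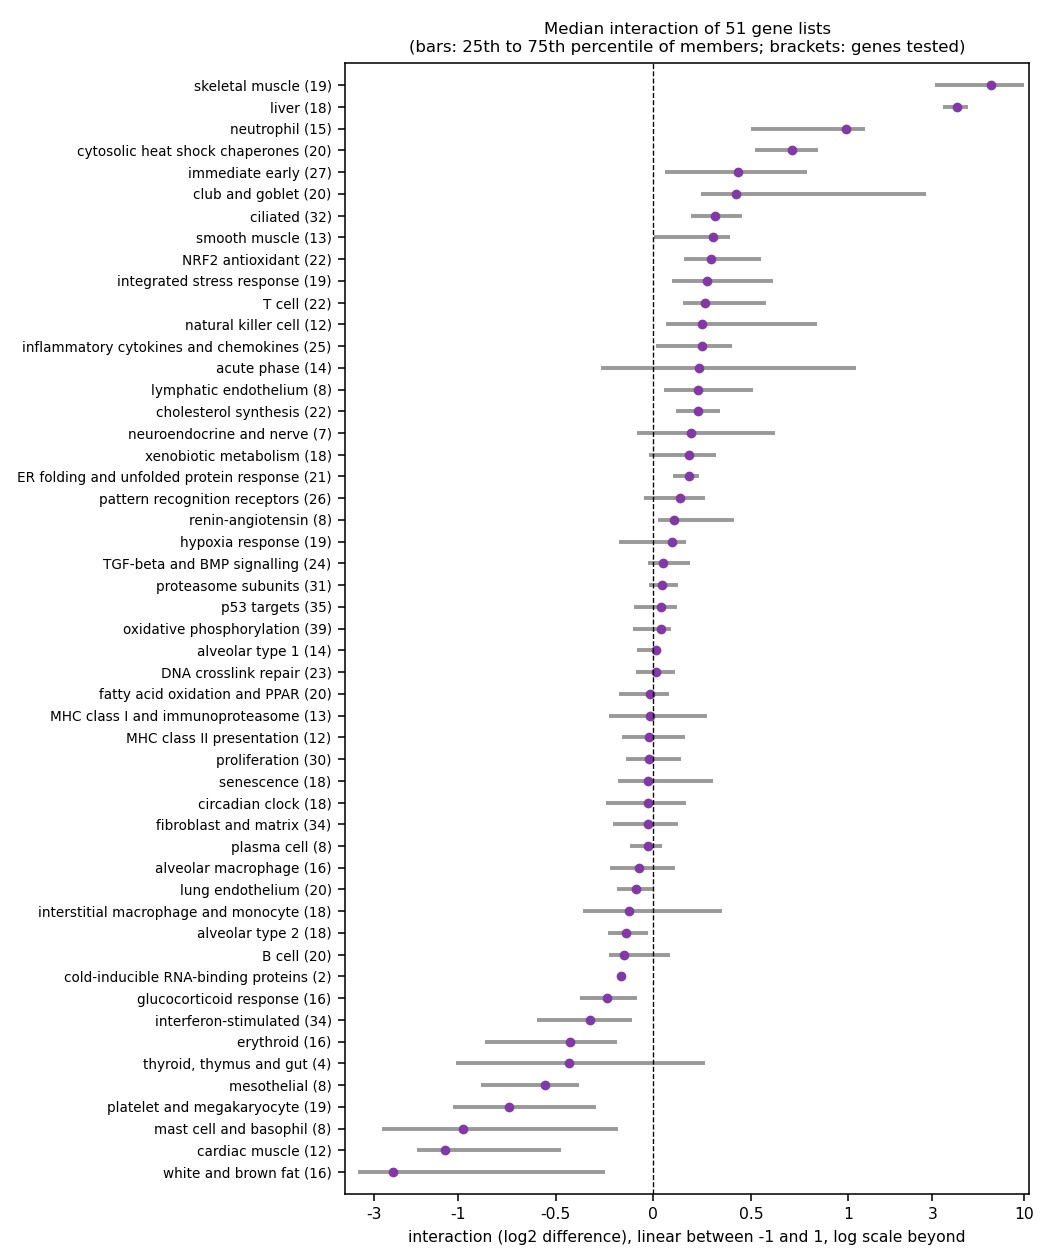
Median interaction (log2 difference; linear between -1 and 1 and logarithmic beyond) of 51 gene lists, with the 25th to 75th percentile of the members as bars and the number of genes tested in brackets. The p53, proteasome and alveolar type 1 lists lie within 0.05 of 0, the heat shock list at 0.71, and the skeletal muscle, liver and fat lists farthest out.

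**Figure D5:**
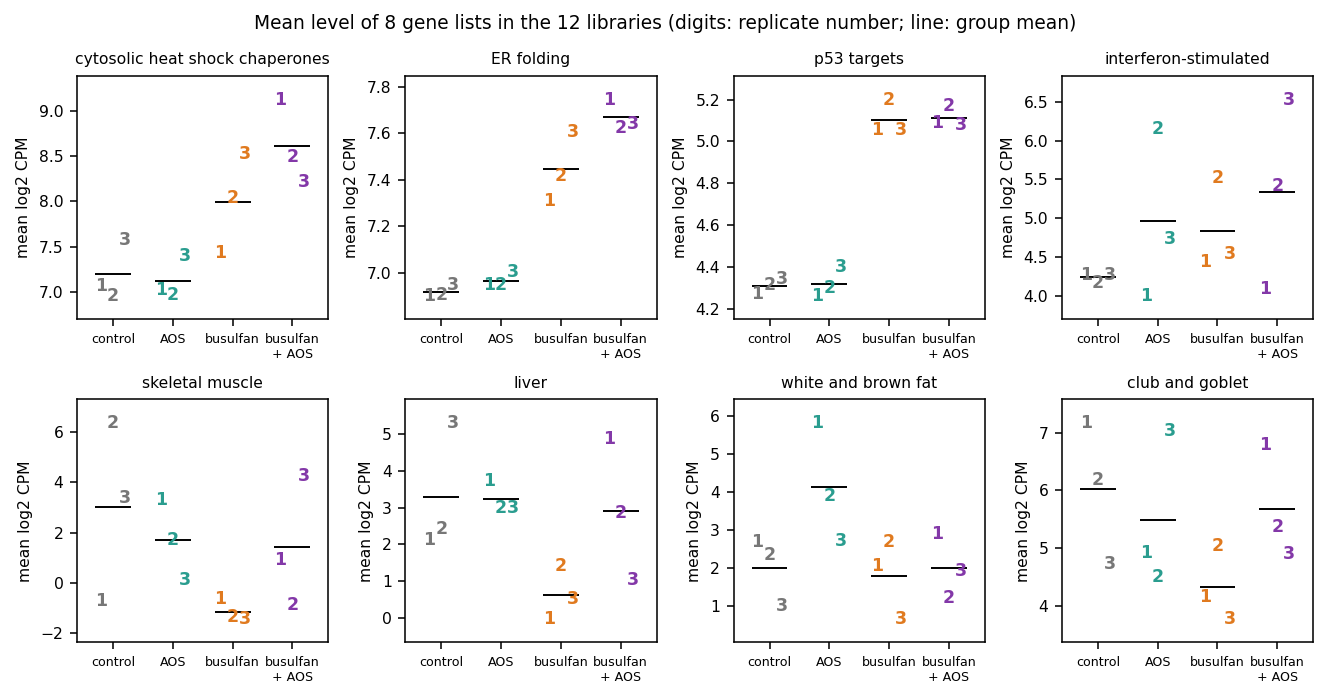
Mean level (log2 CPM) of 8 gene lists in each library, with the replicate number as the plotted digit and the group mean as a line; the axes do not start at 0. The p53 and ER folding lists separate libraries with and without busulfan, whereas the interferon, skeletal muscle, liver, fat and club lists differ most between libraries of the same group.

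Further groups gave single genes with small unadjusted p and no call. Cp, the copper carrier ceruloplasmin, was at 448, 356 and 393 CPM in control, 157, 245 and 249 CPM with AOS, 351, 285 and 320 CPM with busulfan and 441, 425 and 261 CPM with both. AOS libraries lay below every control, and the combined and busulfan groups overlapped, with an interaction of 1.11 (0.44 to 1.79, unadjusted p = 0.00396). Angptl4, a lipase inhibitor and a target of PPAR factors, was at 25.2, 23.6 and 32.8 CPM in control and 35.4 to 75.8 CPM in every treated library, with an interaction of -1.22 (-2.05 to -0.39). Igfbp5, a carrier of insulin-like growth factors, had one of -1.19 (-2.10 to -0.28). Gpihbp1, the capillary anchor of lipoprotein lipase, fell with busulfan in mice given AOS (log2 -0.53, edgeR adjusted p = 0.00739), and its interaction was -0.30 (-0.52 to -0.08). Mmrn1, a matrix protein of lymphatic endothelium, had one of 0.82 (0.28 to 1.36), and Fkbp5, a cochaperone induced by glucocorticoids, one of -0.57 (-1.08 to -0.06).

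None of the other lists held an interaction call. The 23 genes that repair DNA crosslinks had a median of 0.01, with 12 above and 11 below 0, and the 30 proliferation genes one of -0.02, with 14 above and 16 below. The 39 oxidative phosphorylation genes had a median of 0.04, the 34 fibroblast and matrix genes one of -0.03, and the 20 lung endothelium genes one of -0.09. Without single libraries these medians ran from -0.09 to 0.07 for crosslink repair, -0.25 to 0.10 for proliferation, -0.13 to 0.15 for oxidative phosphorylation, -0.17 to 0.06 for matrix and -0.19 to -0.05 for endothelium. Neutrophil genes had a wider spread, with 13 of 15 above 0 and a median of 0.99 that was 0.53 without control replicate 1. Ltf, the granule protein lactoferrin, was at 50.8, 5.53 and 2.66 CPM in control, 7.55, 1.51 and 12 CPM with AOS, 5.32, 1.28 and 1.41 CPM with busulfan and 73.5, 13.5 and 3.83 CPM with both. Its 4 groups overlapped. Immediate early genes, which respond within minutes to stimuli and to tissue handling, had a median of 0.44 that was 0.10 without control replicate 3. Of 16 glucocorticoid-responsive genes 15 were below 0, with a median of -0.24 that was -0.05 without combined replicate 3 and -0.48 without combined replicate 1.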

How the data were processed

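The values are the authors' deposited gene table, which holds estimated counts per gene and library, mapped to mm10 per the submitters' processing notes. No source used here names the aligner, the counting tool, the annotation or the use of strand. The deposited counts were rounded to whole numbers before testing (75.9% to 77.1% of values per library were already whole). The table's second set of deposited columns was taken for FPKM from its values and, like the authors' group means, was not used. Genes were kept by edgeR's filterByExpr, scaled by TMM (factors 0.963 to 1.03) and fitted with glmQLFit and 1 mean per group over 12 libraries (edgeR 4.0.16, limma 3.58.1, DESeq2 1.42.0, R 4.3.3). Calls are Benjamini-Hochberg adjusted p under 0.05 over 15863 genes, and 95% intervals use the fit's moderated degrees of freedom. The 12 pairs of libraries within groups all differed by more than counting noise. The fitting steps were tested on simulated data. Named genes are the 12 smallest p-values in each direction, without predicted names, the 3 smallest in each of 51 gene lists, and 12 fixed anchors; the lists, the anchors and the comparison were chosen with earlier results of these data known. Coordinates, overlaps and promoters come from RefSeq and GENCODE on GRCm38. Alternatives were DESeq2, limma-voom, other scalings and filters, a replicate block, and leaving out each library.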

Additional observations from a re-analysis of the deposited data

How the results depend on the processing

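The count of genes called for the interaction stayed at 0 with limma-voom, upper-quartile or median-of-ratios scaling, no low-count filter, at least 1 CPM in 3 libraries, robust estimates, an adjusted p under 0.1, and, chosen after seeing the data, without the 2 libraries of highest muscle level. DESeq2 gave 16 calls, 12 positive and 4 negative. Leaving out 1 library gave 0 to 1 calls, 0 of them positive and 0 to 1 negative. The single one was Ppard without control replicate 3 (interaction -7.60, adjusted p = 0.0107), named after its values were seen, with 0, 0.182 and 24.8 CPM in control and 14.4 to 27.7 CPM elsewhere. Replicate numbers did not pair the libraries: correlations of same-number pairs ran from -0.23 to 0.15, and 1 of 12 libraries correlated best with its own number. The fit with a replicate block called 0 genes. Of 1615 refits of 77 named genes, 1586 kept direction and side of the threshold, 10 (all DESeq2) passed it newly, 0 lost it, and 19 changed sign in 6 genes with estimates near zero. Across fits without 1 library, Eda2r ran from -0.3497 to 0.0679, Gdf15 from -0.2825 to 0.3429, Cdkn1a from -0.5932 to 0.2899, Pax5 from -0.4742 to 0.0586, Cd79a from -0.5024 to 0.0386 and Scgb1a1 from -0.0578 to 0.5618. Cdkn1a was 0.5325 without both high-muscle libraries. The causes were not tested. With 3 libraries a group, the median standard error of 0.19 limits what could be seen, and values near 0.177 CPM rest on 3 counts.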
